A study of Mus musculus with 4 samples.

Results

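The guanylate-binding proteins (GBPs) and the immunity-related GTPases (IRGs) were examined in cultured mouse hair follicle stem cells (HFSCs) as 10 genes, Gbp2, Gbp3, Gbp4, Gbp6, Gbp7, Gbp9, Irgm1, Irgm2, Igtp and Iigp1, chosen by gene symbol from the 24346 symbols listed for each library. All 10 symbols were listed. The study compared HFSCs of C3H/HeN mice, sorted from dorsal skin by the surface proteins CD49f and CD34 and passaged weekly in the serum-free medium M-CnT, after 10 passages (10p-HFSCs, 2 libraries) and after 48 passages (48p-HFSCs, 2 libraries). No treatment or genetic change separated the groups, and the cells of both had been grown in the same medium, so that passage number was the labelled difference. The sources do not say whether the replicates were separate cultures or animals, and p-values then measure only the spread between these libraries, which may be technical.

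GBPs and IRGs are GTP-hydrolysing proteins of cell-autonomous defence, which most cell types, epithelial cells included, make in large amounts after contact with interferons. GBPs assemble on the membranes of intracellular pathogens and of the vacuoles that hold them, and promote the opening of these vacuoles and the activation of inflammasomes. Among the IRGs, effector proteins such as Iigp1 load onto vacuole membranes, whereas Irgm1, Irgm2 and Igtp are regulators that sit on the cell's own membranes and hold the effectors in the inactive, GDP-bound state.

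Interferon signals reach these genes through short promoter elements, which are shown here because the genes were compared as one interferon-inducible group. Type I interferons act through the interferon-stimulated response element (ISRE), bound by Irf9 with its partners and by Irf1, and interferon gamma acts through the gamma-activated site (GAS). The promoter windows run from 250 bases before to 50 bases after the transcription start, were taken from RefSeq on build GRCm38.p6, and were matched for 6 of the 10 genes in 7 windows, Gbp3 having a pair of starts. No window was matched for Gbp4, Gbp6, Gbp9 and Iigp1. The ISRE core was searched as GAAANNGAAA and the GAS as TTCNNNGAA, on both strands, and all 6 matched genes held the ISRE core. The windows of the GBPs with the highest FPKM in 48p-HFSCs and of the matched IRGs are given in the direction of transcription, with the motif letters in capitals.
Gbp2 (chr3:142620413-142620712, plus strand): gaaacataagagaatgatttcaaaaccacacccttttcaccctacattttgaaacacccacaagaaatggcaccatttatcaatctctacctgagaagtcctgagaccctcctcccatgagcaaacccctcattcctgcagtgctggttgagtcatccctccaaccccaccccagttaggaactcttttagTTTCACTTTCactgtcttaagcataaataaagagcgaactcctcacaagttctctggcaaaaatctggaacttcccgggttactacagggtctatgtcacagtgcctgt
Gbp3 (chr3:142559794-142560093, plus strand): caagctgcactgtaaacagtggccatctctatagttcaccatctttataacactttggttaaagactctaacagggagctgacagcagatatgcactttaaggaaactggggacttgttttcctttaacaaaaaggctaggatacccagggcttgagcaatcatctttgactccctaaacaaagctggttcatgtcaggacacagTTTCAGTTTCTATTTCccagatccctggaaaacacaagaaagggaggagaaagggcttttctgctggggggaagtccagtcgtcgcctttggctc
Irgm1 (chr11:48871371-48871670, minus strand): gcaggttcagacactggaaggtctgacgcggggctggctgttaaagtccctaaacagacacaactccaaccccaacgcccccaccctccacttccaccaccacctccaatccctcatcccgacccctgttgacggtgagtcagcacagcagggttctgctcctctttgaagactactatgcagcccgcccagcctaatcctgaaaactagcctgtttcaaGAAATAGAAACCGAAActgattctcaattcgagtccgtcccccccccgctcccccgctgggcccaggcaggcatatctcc
Igtp (chr11:58199306-58199605, plus strand): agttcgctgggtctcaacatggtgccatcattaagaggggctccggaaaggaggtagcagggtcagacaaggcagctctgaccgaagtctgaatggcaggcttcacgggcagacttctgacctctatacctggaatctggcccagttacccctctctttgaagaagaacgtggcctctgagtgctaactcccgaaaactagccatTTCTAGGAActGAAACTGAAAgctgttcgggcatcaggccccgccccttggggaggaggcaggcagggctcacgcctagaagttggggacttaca
Irgm2 (chr11:58214727-58215026, plus strand): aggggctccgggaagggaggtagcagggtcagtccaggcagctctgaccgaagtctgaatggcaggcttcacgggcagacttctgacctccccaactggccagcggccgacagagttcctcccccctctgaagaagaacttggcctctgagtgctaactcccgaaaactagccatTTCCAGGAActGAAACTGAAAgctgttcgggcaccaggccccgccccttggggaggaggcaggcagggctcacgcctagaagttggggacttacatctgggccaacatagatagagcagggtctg
Of 32851 windows of 300 bases over all genes, 3.44% held the ISRE core, 8.3% held the GAS and 0.454% held both. The core was present in 6 of the 7 windows of the 10 genes, and its 8 matches lay between 64 and 15 bases before the start. Among other GBP and IRG genes, cores began 165 (Gbp5), 137 (Gbp2b), 91 and 46 (Gm12250), 77 (Tgtp1) and 70 bases (Tgtp2) before the start. In 9930111J21Rik1 the core lay after the start, and the windows of Irgq, Gm5431, 9930111J21Rik2 and Ifi47 held none. In Gbp2 a single match covered bases 59 to 50 before the start. In Gbp3 matches at bases 45 to 36 and 39 to 30 overlapped by 4 bases, as did those of Irgm1 at bases 30 to 21 and 24 to 15. The second start of Gbp3 held neither motif.

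Igtp and Irgm2, which lie next to each other, shared an unbroken run of 61 bases of promoter sequence. In Igtp the GAS covered bases 45 to 37 and the ISRE core bases 34 to 25 before the start, while in Irgm2 they covered bases 75 to 67 and 64 to 55, so that in both genes 2 bases separated the GAS from the ISRE core. The same gap of 2 bases was found in Tgtp1 and Tgtp2, IRG genes outside the 10, which were at most 0.317 FPKM in any library. Gbp7 held the core at bases 53 to 44 and GAS matches at bases 106 to 98 and 87 to 79. A match is a stretch of letters, and binding was not measured here.

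**Figure D1:**
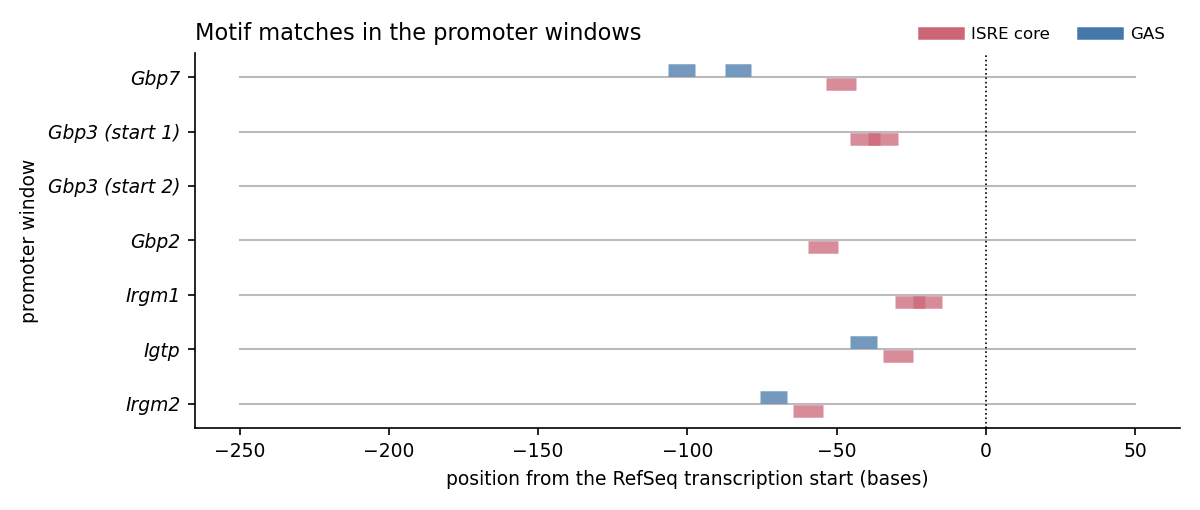
Positions of ISRE core (red) and GAS (blue) matches in the 7 promoter windows, in bases from the RefSeq transcription start (dotted line). Every window but that of the second Gbp3 start holds an ISRE core within 64 bases before the start, and the GAS of Igtp and of Irgm2 lies just upstream of the core.

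Expression was given by the authors as FPKM, the fragments of a gene scaled to its transcript length and to the mapped fragments of the library. Differences between groups are on the log2(FPKM + 1) scale, which understates the change of low genes, and were tested with limma over the 11018 genes that reached an FPKM of 1 in 2 or more libraries. Genes were called when the p-value adjusted by Benjamini and Hochberg's method was under 0.05 and the log2 difference was 1 or more in size. Over all tested genes 1189 were called higher in 48p-HFSCs and 1008 lower, so that 54.1% of the calls were higher, against 43.4% (623 higher, 812 lower) after rescaling to TPM, where the median difference of all tested genes moved from -0.03 to -0.56. Read totals were not given, and relative depth was estimated from the ratios between low FPKM values. Relative to replicate 1 of 10p-HFSCs it was 71.6% in replicate 2 of 10p-HFSCs, and 82.9% and 46.7% in replicates 1 and 2 of 48p-HFSCs. The estimate reads the scaling of the FPKM values as depth, which was not tested. Replicate 2 of 48p-HFSCs stood apart: its FPKM values summed to 1414953 against 581516 to 719012 in the other libraries, and 1871 tested genes differed at least 2-fold between the 48p-HFSC libraries, as compared to 151 between the 10p-HFSC libraries. The labelled cell type was checked on markers. The basal keratinocyte genes Krt5 and Krt14 had an FPKM of 1220 to 8160 in all libraries. The follicle stem cell genes Cd34, Lhx2 and Lgr5 were at most 0.234. Sox9 was called lower, at 45.6 and 44.2 FPKM in 10p-HFSCs, and at 20.2 and 8.31 FPKM in 48p-HFSCs (limma adjusted p = 0.039). For this gene the paper reported an increase by qRT-PCR after long culture. Krt15 was not called, at 136 and 82.6 FPKM in 10p-HFSCs, and 425 and 18.8 FPKM in replicates 1 and 2 of 48p-HFSCs. Itga6, the gene of CD49f, and Itgb4 were called higher (limma adjusted p = 0.014 and 0.049), and Trp63 was not called. Of 13 leukocyte markers Ptprc, the pan-leukocyte gene, was at most 0.0711 and Cd3e, Tyrobp, Nkg7 and Cd207 were at 0 in every library, whereas Cd68, Cd74 and Lyz2 were called higher in 48p-HFSCs, and the summed FPKM of the list was 9.0 to 9.43 in 10p-HFSCs and 121 to 185 in 48p-HFSCs. The summed FPKM of 8 fibroblast markers was 353 to 388 in 10p-HFSCs and 2.53 to 3.32 in 48p-HFSCs. In 10p-HFSCs nearly all of it came from Vim (284 and 327 FPKM) and Col1a2 (67.6 and 59.3 FPKM), which were both called lower in 48p-HFSCs. Col1a1, Col3a1 and Pdgfra were at most 0.903, 0.195 and 0.284 FPKM in any library, and Pdgfrb, Dcn and Lum at most 0.034. The part of the leukocyte or fibroblast list in the results below was not tested.

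The GBP genes Gbp2, Gbp3, Gbp4 and Gbp9 rose from mean FPKM values of 0.0697 to 0.754 in 10p-HFSCs to mean FPKM values of 3.18 to 18.5 in 48p-HFSCs. None of the IRG genes was called higher, although Igtp had higher values in both 48p-HFSC libraries than in both 10p-HFSC libraries. In all, 4 of the 10 genes were called higher, 0 were called lower, 2 were not called and 4 were too low to be tested, as compared to 10.8% of all tested genes called higher and 9.15% called lower (19.9% in either direction). The 4 called genes were under an FPKM of 1 in both 10p-HFSC libraries and passed the filter only through 48p-HFSCs, the group in which they were high, so that their number cannot be read against these shares as support. Without the filter 2 of the 10 genes, Gbp2 and Gbp4, were called higher, as compared to 4.89% of 16679 genes. An unadjusted p under 0.05 was found for 5 of the 6 tested members and for 4118 of the 11018 tested genes. Each of the 10 genes had a higher FPKM in replicate 1 than in replicate 2 of 48p-HFSCs, so that the size of each increase depended on the library. In these bulk samples, fewer expressing cells and less RNA per cell cannot be told apart.

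**Figure D2:**
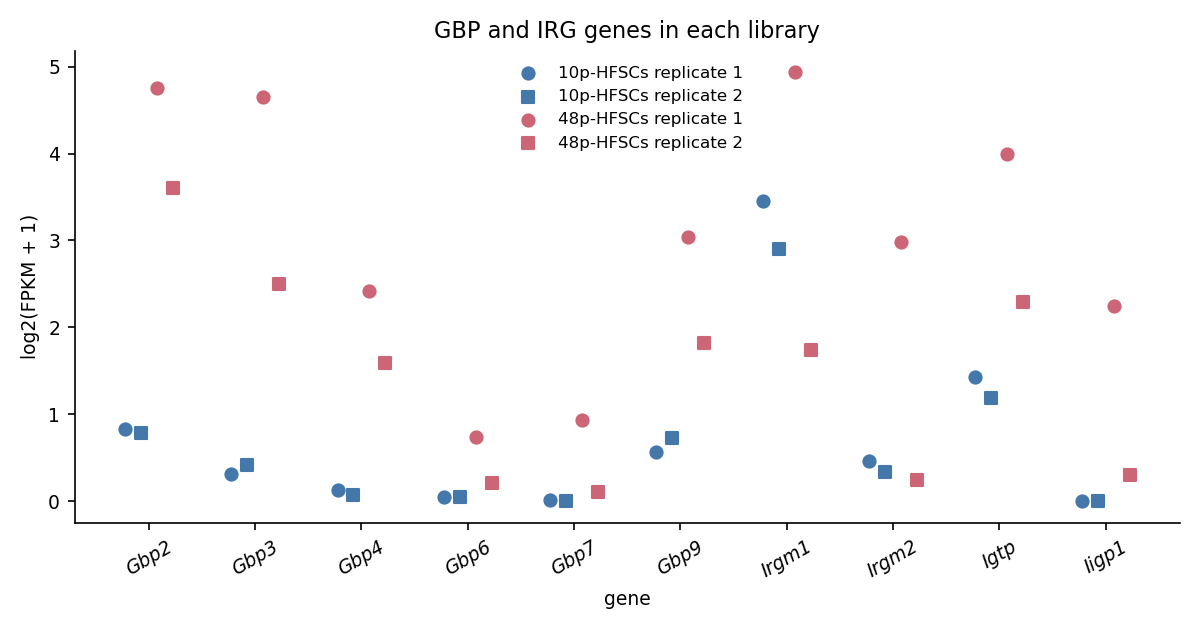
Level of each of the 10 GBP and IRG genes in each library as log2(FPKM + 1), with blue marks for 10p-HFSCs, red marks for 48p-HFSCs, circles for replicate 1 and squares for replicate 2. The red circle is the highest mark of all 10 genes, and the red square lies below both blue marks for Irgm1 and Irgm2.

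Gbp2 (ENSMUSG00000028270.12) lies on chromosome 3 from 142620602 to 142638008 on the plus strand of GRCm38, and its protein carries a lipid anchor and coats the vacuole of Toxoplasma. It was at 0.782 and 0.727 FPKM in replicates 1 and 2 of 10p-HFSCs, and at 25.9 and 11.2 FPKM in replicates 1 and 2 of 48p-HFSCs. The groups lay far apart, with the lower 48p-HFSC library still well above both 10p-HFSC libraries. The mean FPKM rose 24.5-fold, from 0.754 ± 0.0382 to 18.5 ± 10.4 (SD, n = 2 each), with a log2 difference of 3.36 (SE 0.42) and a limma adjusted p of 0.0047. Gbp2 had the highest mean FPKM of the 6 GBP genes in both groups, although in 48p-HFSCs its range overlapped with that of Gbp3.

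Gbp3 (ENSMUSG00000028268.14), also on chromosome 3, from 142560026 to 142573209 on the plus strand, encodes another GBP found at parasite vacuoles. Its FPKM was 0.245 and 0.341 in 10p-HFSCs, and 24.1 and 4.67 in replicates 1 and 2 of 48p-HFSCs. The groups did not overlap, but the 48p-HFSC libraries differed 5.17-fold from each other. The mean rose 49.1-fold, from 0.293 ± 0.0685 to 14.4 ± 13.7 (SD, n = 2 each), with a log2 difference of 3.21 (SE 0.68) and a limma adjusted p of 0.025. The call was lost without the filter on low values (limma adjusted p = 0.076). Against the 10p-HFSC mean the log2 difference was 4.28 in replicate 1 and 2.13 in replicate 2.

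Gbp4 (ENSMUSG00000079363.7; chromosome 5, 105115767 to 105139586, minus strand) and Gbp9 (ENSMUSG00000029298.15; chromosome 5, 105077630 to 105139539, minus strand) belong to the second GBP gene cluster, and their annotated spans overlap on the same strand. Gbp4 was at 0.0916 and 0.0479 FPKM in 10p-HFSCs, and at 4.35 and 2.01 FPKM in 48p-HFSCs. It was under 0.1 FPKM in both libraries of the first group and above 2 FPKM in both of the second, a 45.6-fold rise of the mean from 0.0697 ± 0.0308 to 3.18 ± 1.65 (SD, n = 2 each), with a log2 difference of 1.91 (SE 0.33) and a limma adjusted p of 0.014. Gbp9 was at 0.485 and 0.657 FPKM in 10p-HFSCs, and at 7.24 and 2.53 FPKM in 48p-HFSCs. Its groups were apart as well, and its mean rose 8.56-fold from 0.571 ± 0.122 to 4.89 ± 3.33 (SD, n = 2 each), with a log2 difference of 1.78 (SE 0.43) and a limma adjusted p of 0.037. The call of Gbp9 was lost after rescaling to TPM (limma adjusted p = 0.13) and without the filter (limma adjusted p = 0.093).

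The log2 differences of Gbp2, Gbp3, Gbp4 and Gbp9 were 2.79, 2.13, 1.49 and 1.17 without replicate 1 of 48p-HFSCs, and 3.94, 4.28, 2.32 and 2.39 without replicate 2. All 4 were called in both cases, but the spread was then estimated from the 10p-HFSC libraries alone, the lone 48p-HFSC library was assumed to vary like them, and the calls over all genes were 1936 higher and 1875 lower without replicate 1, and 1078 higher and 767 lower without replicate 2, so that these calls say nothing about stability. Without replicate 1 or without replicate 2 of 10p-HFSCs, limma called 0 members higher, with unadjusted p under 0.05 for 3 and 4 members and adjusted p-values of 0.12 to 0.33 for the 4 genes. The estimate of the spread then rests on the 48p-HFSC libraries alone, and the calls over all genes fell to 35 and 36 higher. The smallest p that an exact permutation test of 2 against 2 libraries can give is 0.333.

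Gbp6 and Gbp7, further GBPs recruited to parasite vacuoles, stayed under an FPKM of 1 in all libraries and could not enter the test. Gbp6 was at 0.0357 and 0.0332 FPKM in 10p-HFSCs, and at 0.674 and 0.153 FPKM in 48p-HFSCs. Gbp7 was at 0.00904 and 0 FPKM in 10p-HFSCs, and at 0.906 and 0.0775 FPKM in 48p-HFSCs. In both genes the 48p-HFSC libraries were above the 10p-HFSC libraries, with log2 differences of 0.43 and 0.51, and without the filter on low values limma gave adjusted p-values of 0.23 and 0.31. Of the stretches of 100 bases, close to the read length, in Gbp6 transcripts, 64.5% also occurred in transcripts of other genes, mainly the annotated gene Gm43302 and Gbp10, so that its reads could have been counted for these genes. This share was 10.0% for Gbp7, between 0 and 1.65% for Gbp2, Gbp3, Gbp4 and Gbp9, and between 0 and 5.16% for the IRG genes.

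Irgm1 (ENSMUSG00000046879.7; chromosome 11, 48861968 to 48871683, minus strand), a regulator that resides on the Golgi apparatus, lysosomes and mitochondria, was the most abundant of the 10 genes in 10p-HFSCs with 9.93 and 6.47 FPKM. It had the highest FPKM of the family in replicate 1 of 48p-HFSCs, 29.6, whereas replicate 2 had 2.33. One 48p-HFSC library was thus above and the other below both 10p-HFSC libraries, with 3.61 and 0.284 times the 10p-HFSC mean. The means were 8.2 ± 2.44 and 16.0 ± 19.3 FPKM (SD, n = 2 each), and the log2 difference of 0.16 (SE 0.98, limma adjusted p = 0.92) was much smaller than the spread between the replicates. Its sign depended on the library left out: without replicate 1 of 48p-HFSCs it was -1.44, without replicate 2 of 48p-HFSCs it was 1.76, and without replicates 1 and 2 of 10p-HFSCs it was 0.43 and -0.11. After rescaling to TPM it was -0.29, against a median of -0.56 over all tested genes.

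Igtp (ENSMUSG00000078853.8; chromosome 11, 58199556 to 58207591, plus strand), the regulator found on the endoplasmic reticulum, was at 1.69 and 1.28 FPKM in 10p-HFSCs, and at 15.0 and 3.91 FPKM in 48p-HFSCs. The groups did not overlap, and the mean FPKM was 1.48 ± 0.295 and 9.45 ± 7.84 (SD, n = 2 each), a ratio of 6.37. The log2 difference of 1.84 (SE 0.56) missed the threshold with a limma adjusted p of 0.07 (unadjusted p = 0.018). The log2 difference was 2.69 without replicate 2 of 48p-HFSCs and 0.99 without replicate 1. Igtp was called with quantile normalization (limma adjusted p = 0.038).

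Irgm2 (chromosome 11, 58199618 to 58222782, plus strand), a regulator at the Golgi apparatus, was detected in a single 48p-HFSC library above its 10p-HFSC level. Its FPKM was 0.384 and 0.268 in 10p-HFSCs, and 6.91 and 0.19 in replicates 1 and 2 of 48p-HFSCs. The groups overlapped, and the 48p-HFSC libraries differed 36.4-fold, the largest such ratio among the 10 genes. The annotated span of Irgm2 overlaps that of Igtp on the same strand, and the transcripts of the pair have 109 stretches of 100 bases in common. Iigp1 (chromosome 18, 60376027 to 60392634, plus strand), the only effector IRG among the 10 genes, had a listed FPKM of 0 in 10p-HFSCs, in replicates 1 and 2 alike, as compared to 3.73 and 0.229 FPKM in replicates 1 and 2 of 48p-HFSCs. Neither gene passed the filter, since 1 library only had an FPKM of at least 1, and without the filter limma gave adjusted p-values of 0.45 for Irgm2 (log2 difference 1.21) and 0.29 for Iigp1 (log2 difference 1.27).

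By subfamily, limma called 4 of 6 GBP genes and 0 of 4 IRG genes higher, as compared to 10.8% of all tested genes. The 4 called genes passed the filter only through 48p-HFSCs, so that these counts are partly fixed by the filter. Of the GBP genes 4 were tested, and of the IRG genes 2, of which 1 had an unadjusted p under 0.05. A difference between the subfamilies was not tested. Across all 10 genes, both 48p-HFSC libraries were above both 10p-HFSC libraries in 8 genes, as compared to 28.3% of the 16679 genes with a value above 0 in any library. The exceptions were Irgm1 and Irgm2. Both 48p-HFSC libraries were below both 10p-HFSC libraries in 29.7% of the genes, and in 0 of the 10. The summed FPKM of the 10 genes was 13.6 and 9.82 in 10p-HFSCs, and 118 and 27.2 in replicates 1 and 2 of 48p-HFSCs.

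By mean FPKM, which is scaled to transcript length, the order in 10p-HFSCs was Irgm1, Igtp, Gbp2, Gbp9, Irgm2, Gbp3, Gbp4, Gbp6, Gbp7 and Iigp1. Of the 9 pairs of neighbours in this order 2 had overlapping ranges, Irgm2 with Gbp3 and Gbp7 with Iigp1. In 48p-HFSCs the order was Gbp2, Irgm1, Gbp3, Igtp, Gbp9, Irgm2, Gbp4, Iigp1, Gbp7 and Gbp6, and all 9 pairs of neighbours had overlapping ranges, so that this order is not resolved by the libraries. IRG transcripts held the first and second places in 10p-HFSCs, while Gbp2 and Gbp3 were among the first 3 genes in 48p-HFSCs.

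The 48p-HFSC replicates were then compared gene by gene. Replicate 1 was above replicate 2 in all 10 genes, by 2.16-fold for Gbp4, 2.32-fold for Gbp2 and 2.86-fold for Gbp9 at the low end, and by 11.7-fold for Gbp7, 12.7-fold for Irgm1, 16.2-fold for Iigp1 and 36.4-fold for Irgm2 at the high end. Of all tested genes, 48.7% were higher in replicate 1. On the log2(FPKM + 1) scale replicate 2 was lower by 1 or more in 7 of the 10 genes, and in 8.3% of all tested genes (914 genes). The 4 genes with the highest ratios include 3 of the 4 IRG genes, and the 3 genes with the lowest ratios are GBP genes.

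Transcript length moved with the replicate difference across the transcriptome. In 4 equal bins of the tested genes by transcript length, from short to long, the median log2 difference of replicate 2 minus replicate 1 was 0.43, 0.09, -0.06 and -0.28 for the 48p-HFSC libraries, and 0.22, 0.05, -0.04 and -0.22 for the 10p-HFSC libraries. The differences of the IRG genes were lower than those of nearly all genes of similar length, since only 0.0754% of the genes in the length bin of Irgm1, 0.264% for Irgm2, 0.792% for Iigp1 and 1.62% for Igtp had a difference as low. For the GBP genes this share was 0.528% for Gbp3, 4.94% for Gbp2, 6.26% for Gbp9, 12.9% for Gbp4, 17.3% for Gbp7 and 23.1% for Gbp6. The log2(FPKM + 1) scale makes differences of low genes small, so that these shares depend on level as well. Gbp6 and Gbp7, under an FPKM of 1 in all libraries, differed 4.41-fold and 11.7-fold between the 48p-HFSC replicates. After the libraries had been corrected for the length and GC content of transcripts, an alternative chosen after seeing the data, Gbp2, Gbp3, Gbp4 and Gbp9 were called again, with log2 differences of 3.32, 3.2, 2.12 and 2.02, and Irgm1 and Igtp were not (0.33 and 1.66).

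**Figure D3:**
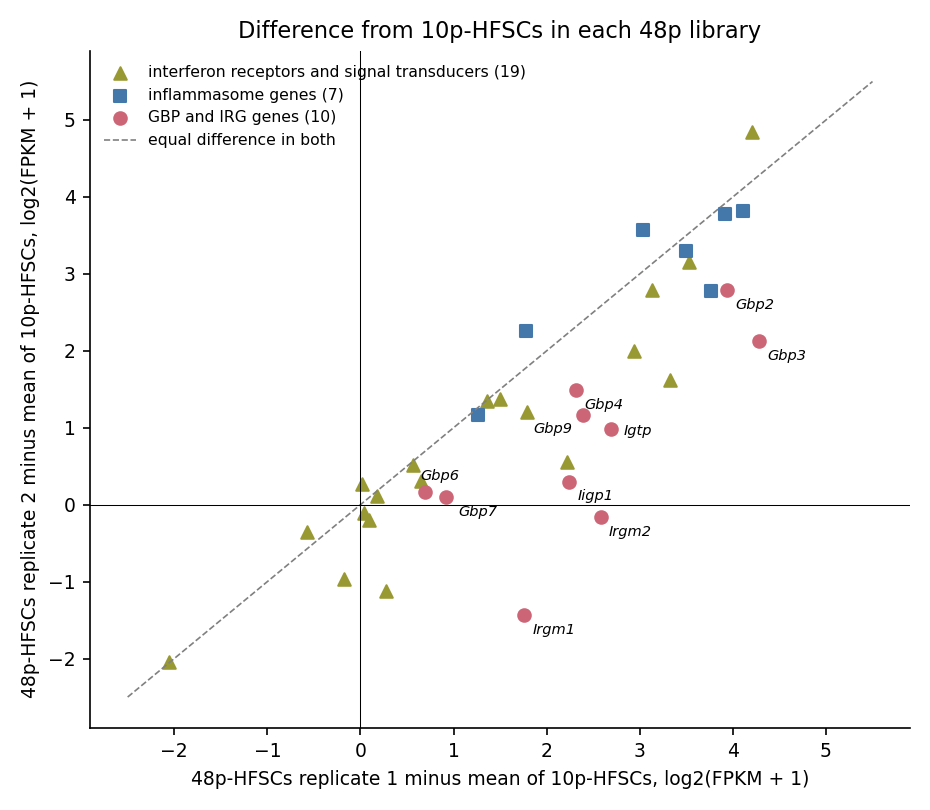
Log2 difference from the 10p-HFSC mean in replicate 1 (horizontal) and replicate 2 (vertical) of 48p-HFSCs for the 10 GBP and IRG genes (red), the 19 tested interferon receptors and signal transducers (green) and the 7 tested inflammasome genes (blue). All 10 GBP and IRG genes lie below the dashed line of equal differences, from Gbp3 at 4.28 and 2.13 to Irgm1 at 1.76 and -1.44.

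The genes whose profile over the 4 libraries, centred on its mean, lay closest to the mean profile of the 10 genes were 4930503E14Rik (Euclidean distance 0.146), Gdpd2 (0.185), Zfp185 (0.229), Nfkbie (0.256) and Arhgef4 (0.256), on the log2(FPKM + 1) scale. The mean profile of the family was -0.75 and -0.82 in 10p-HFSCs, and 1.6 and -0.03 in replicates 1 and 2 of 48p-HFSCs.

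The 10 genes lie in 5 groups of neighbouring GBP and IRG genes, on chromosome 3 (Gbp5 to Gbp2), chromosome 5 (Gbp8 to Gbp11), chromosome 11 (Irgm1 to Ifi47, and Gm12250 to Irgm2) and chromosome 18 (Gm4951 to Iigp1). Members of one group were not alike in level. On chromosome 3, Gbp2 and Gbp3 reached mean FPKM values of 18.5 and 14.4 in 48p-HFSCs, whereas Gbp7 next to Gbp3 had 0.906 FPKM at most. On chromosome 5, Gbp4 and Gbp9 were called higher and Gbp6 stayed under an FPKM of 1. Around the groups 30 tested genes were examined, 3 on each side of each group. Of these, 1 was called higher (Isoc1, log2 difference 1.12) and 2 lower (Bmpr1b, -1.14, and Pkd2, -1.76). Over all tested genes 10.8% were called higher and 9.15% lower. The median log2 difference of the 30 genes was 0.48, as compared to 1.52 over the 10 genes and -0.03 over all tested genes. For the 30 genes the median difference of replicate 2 minus replicate 1 in 48p-HFSCs was -0.04.

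**Figure D4:**
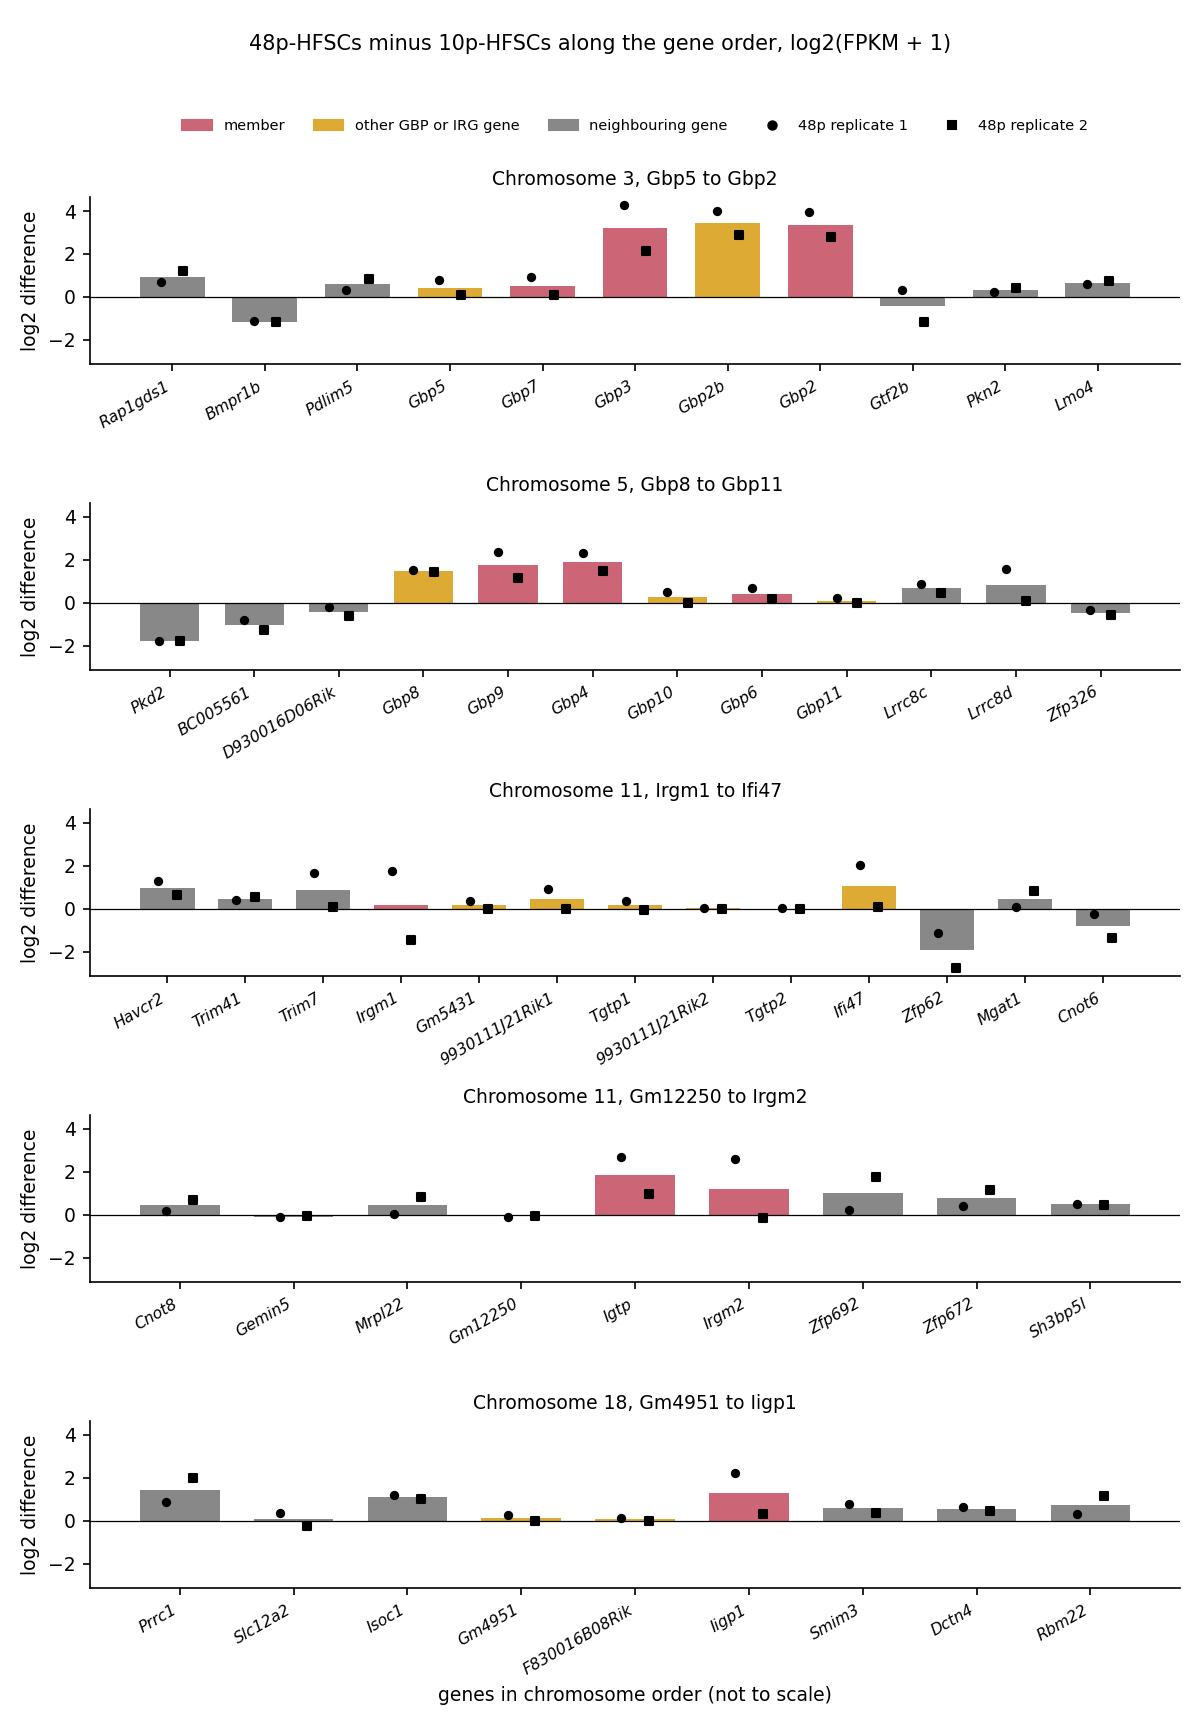
Log2 difference between 48p- and 10p-HFSCs on the log2(FPKM + 1) scale for the 10 genes (red), other GBP and IRG genes (yellow) and 3 tested neighbours on each side (grey), in chromosome order; bars show the difference of the group means, circles and squares the difference in replicates 1 and 2 of 48p-HFSCs. The tallest bars are Gbp2b, Gbp2 and Gbp3 on chromosome 3, while grey bars stay between -1.93 and 1.44.

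Of 16 further GBP and IRG genes listed, 3 passed the filter and 2 were called higher, Gbp2b and Gbp8, which passed only through 48p-HFSCs. Over all tested genes 10.8% were called higher. Gbp2b, which lies between Gbp3 and Gbp2, was at 0.598 and 0.6 FPKM in 10p-HFSCs, and at 24.9 and 10.8 FPKM in 48p-HFSCs, values close to those of Gbp2 although no stretch of 100 bases in transcripts of either gene occurred in another gene, with a log2 difference of 3.45 (SE 0.42, limma adjusted p = 0.0043). Gbp8 rose from 0.173 and 0.0605 to 2.27 and 2.04 FPKM (log2 difference 1.5, SE 0.23, limma adjusted p = 0.0087), with 48p-HFSC replicates closer to each other than in any of the 10 genes. Irgq, an IRG relative expressed in 10p-HFSCs at 6.41 and 6.86 FPKM, was at 8.59 and 2.33 FPKM in 48p-HFSCs (log2 difference -0.43, limma adjusted p = 0.57), and Ifi47, an IRG gene at the end of the Irgm1 group, was at 0.192 and 0.0448, then 3.52 and 0.206 FPKM. The interferon-inducible GTPase genes Mx1 and Mx2, of another family, were at 9.62 and 3.58 FPKM and at 5.0 and 0.99 FPKM in 48p-HFSCs, again higher in replicate 1, and Mx1, which passed the filter only through 48p-HFSCs as well, was called higher (log2 difference 2.31, limma adjusted p = 0.018). Without either 10p-HFSC library limma called 0 of these genes higher, with unadjusted p under 0.05 for Gbp2b, Gbp8 and Mx1, and without replicate 1 of 48p-HFSCs Irgq was called lower.

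The signalling genes upstream of the family were followed in order of their role. Of 21 interferon genes 19 were listed at 0 in all libraries and the highest value was 0.275 FPKM. Of 23 receptor and signal transducer genes, 19 passed the filter, 8 were called higher (Ifngr2, Ifnar2, Il10rb, Stat2, Irf9, Irf1, Irf7 and Usp18) and 1 lower (Ifnlr1), with a median log2 difference of 0.48. Over all tested genes 10.8% were called higher and 9.15% lower. Ifnar2 and Il10rb, listed at 0 in 10p-HFSCs, were at 17.5 and 27.7 FPKM and at 10.5 and 7.88 FPKM in 48p-HFSCs. Both passed the filter only through 48p-HFSCs, and Ifnlr1 only through 10p-HFSCs, so that the counts are partly fixed by the filter. Irf1, which binds the ISRE, was at 32.9 and 29.0 FPKM in 10p-HFSCs, and at 80.7 and 80.2 FPKM in 48p-HFSCs (log2 difference 1.35, limma adjusted p = 0.016), so that its 48p-HFSC replicates were alike, unlike those of the 10 GTPase genes. Irf9 (2.03 and 2.49, then 31.8 and 9.0 FPKM, limma adjusted p = 0.032) was higher in replicate 1 of 48p-HFSCs, as the GTPase genes were. The interferon gamma receptor genes were at 9.8 and 11.0, then 6.69 and 7.95 FPKM for Ifngr1 (limma adjusted p = 0.26), and at 5.97 and 4.57, then 16.6 and 15.1 FPKM for Ifngr2 (limma adjusted p = 0.019). After rescaling to TPM 3 of these genes were called higher, and without replicate 1 or 2 of 10p-HFSCs 0 were, with unadjusted p under 0.05 in either direction for 8 and 9 genes. Socs3 was called lower without replicate 1 of 48p-HFSCs, and Ifnlr1 lost its call without replicate 1 of 10p-HFSCs.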

How the data were processed

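Polyadenylated RNA of 10p- and 48p-HFSCs was sequenced in 2 libraries each with a stranded kit as single-end reads. The authors aligned reads to the assembly mm10 and deposited one FPKM value per gene symbol and library. The submitters' processing notes name TopHat2 2.1.1, Bowtie2 2.2.8, SAMtools 0.1.18 and Cuffdiff 2.2.1, while the study's methods name Cufflinks and other versions of Bowtie2 and SAMtools. The annotation and the handling of reads with several matches are not given in the sources used here. FPKM values carry no read totals, so the absolute depth is unknown and no counting interval is given. The relative depth was taken from the most common ratio between FPKM values under 0.3.

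Libraries were grouped by the labelled passage number. Genes reaching an FPKM of 1 in 2 or more libraries were tested on log2(FPKM + 1) with limma 3.58.1 in R 4.3.3 (lmFit, eBayes with a variance trend) and Benjamini-Hochberg adjustment over all 11018 tested genes. The procedure was tested on simulated data. The members, the gene lists and the tests were chosen with earlier results of these data known. Named are all members, and other family genes that reached an FPKM of 1 in any library or whose promoter windows or gene order are described. Also named are called genes of the lists with Ifngr1, the 5 nearest profiles, neighbours that were called, and markers. One gene is not reported here. Socs3, Nlrp3, Nlrc4 and Pycard were chosen after their values were seen. Levels, replicate ratios and promoter motifs were described without a test. Gene coordinates, transcript lengths, GC content and shared stretches of transcripts came from GENCODE release M21 (GRCm38, another name of mm10), in which 95.7% of the symbols were found, and length and GC content for 96.3% of the tested genes. Alternatives were a pseudocount of 0.1, no filter, a mean FPKM of at least 1, median-of-ratios scaling, TPM rescaling, a constant variance prior, quantile normalization, no fold limit, an adjusted p under 0.1, a block for the replicate number, leaving out each library, and, chosen after seeing the data, a correction for transcript length and GC content by splines with 4 degrees of freedom, with and without the block. Other computations used Python 3.11, pandas 2.3.3 and numpy 2.4.6.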

Additional observations from a re-analysis of the deposited data

How the results depend on the processing

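Gbp2 and Gbp4 were called higher in every alternative except those without a 10p-HFSC library, and Gbp3 and Gbp9 also lost their calls without the filter on low values (limma adjusted p = 0.076 and 0.093), where 2 members were called higher as compared to 4.89% of 16679 genes. Gbp9 lost its call with TPM rescaling too (limma adjusted p = 0.13). Irgm1 changed sign with TPM rescaling (-0.29), without replicate 2 of 10p-HFSCs (-0.11) and without replicate 1 of 48p-HFSCs (-1.44), and was 1.76 without replicate 2 of 48p-HFSCs. Rescaling to TPM called 623 genes higher, 3 receptor and transducer genes higher, 0 prenylation enzymes (unadjusted p under 0.05 for 2) and 1 ubiquitin or galectin gene, and the absent filter called 637 genes lower and 0 Mx and GVIN genes higher (unadjusted p under 0.05 for 3). Autophagy genes called in either direction numbered 2 with quantile normalization, an adjusted p under 0.1, or the length and GC correction. Leaving out each library in turn gave 35 to 1936 genes called higher and 140 to 1875 lower, 0 to 5 members higher and 0 to 1 lower, 0 to 2 other GBP and IRG genes higher and 0 to 1 lower, 0 to 1 Mx and GVIN genes higher, and 0 to 9 receptor and transducer genes higher and 0 to 2 lower. In either direction it gave 0 to 2 prenylation, 1 to 4 autophagy, 0 to 3 ubiquitin and galectin and 0 to 7 inflammasome genes. The lowest counts came without a 10p-HFSC library, where the spread is estimated from the 48p-HFSC libraries alone. The cause of the other changes was not tested.

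The groups share replicate numbers, which the labels do not explain, and the correlation of same-numbered deviations across genes was 0.408. A replicate block in the fit gave 1613 genes called higher and 1497 called lower, 2 autophagy genes (3 together with the length and GC correction), and Igtp as a further call (limma adjusted p = 0.0015). Values of genes under an FPKM of 1, such as Gbp6, Gbp7, and Irgm2 and Iigp1 in replicate 2 of 48p-HFSCs, the library of lowest estimated relative depth, are the least precise.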

Other observations

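GBPs are known to act together with inflammasome caspases, galectins that mark broken vacuoles, and autophagy factors, and the genes of these partners were examined in lists. Of 11 inflammasome genes 7 passed the filter, and limma called each of the 7 higher in 48p-HFSCs, as compared to 10.8% of all tested genes. Casp1, Casp4 and Gsdmd passed the filter only through 48p-HFSCs, the group in which they were high, so that the count is partly fixed by the filter. Casp4, which encodes the mouse caspase 11 that senses bacterial lipopolysaccharide in the cytosol, was at 0.197 and 0.055 FPKM in 10p-HFSCs, and at 16.1 and 14.4 FPKM in 48p-HFSCs (log2 difference 3.85, limma adjusted p = 0.00093). Casp1, the caspase of canonical inflammasomes, rose from 0.709 and 0.365 to 25.3 and 20.5 FPKM (log2 difference 3.96, limma adjusted p = 0.0011), and Gsdmd, the pore-forming substrate of both, was listed at 0 in 10p-HFSCs and at 10.3 and 8.85 FPKM in 48p-HFSCs (limma adjusted p = 0.0011). Aim2, a sensor of cytosolic DNA (log2 difference 2.02), the cytokine genes Il18 (3.27) and Il1a (3.3), and Ninj1, which acts in membrane rupture (1.22), were the other called genes. Il1b, another cytokine gene, was too low to be tested and lower in 48p-HFSCs, at 0.435 and 0.182 FPKM in 10p-HFSCs, and at 0.0524 and 0 FPKM in 48p-HFSCs. The sensor genes Nlrp3 and Nlrc4 and the adaptor gene Pycard were at or near 0 in all libraries. Replicate 2 was at 0.499 to 1.47 times replicate 1 in 48p-HFSCs over the 7 genes, and the median log2 difference of the 11 genes was 1.78 in replicate 1 and 2.26 in replicate 2, as compared to 2.36 and 0.64 for the 10 GBP and IRG genes. Both inflammasome medians are the values of the single gene Aim2, and replicate 1 was above replicate 2 in 8 of the 11 genes. Of the called genes, only Aim2 and Il1a were higher in replicate 2. Without replicate 1 or 2 of 10p-HFSCs limma called 0 of the inflammasome genes, with unadjusted p under 0.05 for 6 and 7.

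Among 7 ubiquitin and galectin genes Lgals3 (44.0 and 62.0, then 351 and 695 FPKM, limma adjusted p = 0.0059) and Lgals8 (13.2 and 12.4, then 42.7 and 41.8 FPKM, limma adjusted p = 0.0075), which encode galectins that bind the sugars of damaged vacuoles, were called higher. Of 17 tested autophagy genes Map1lc3a alone was called, from 6.56 and 11.0 FPKM in 10p-HFSCs to a listed 0 in both 48p-HFSC libraries (limma adjusted p = 0.002), and of 6 prenylation enzymes Icmt, which methylates prenylated proteins, was called higher (log2 difference 1.49, limma adjusted p = 0.017). Over all tested genes 19.9% were called in either direction, and the counts of these lists are not read as results about the lists. Without replicate 1 or 2 of 10p-HFSCs limma called 0 of the galectin and prenylation genes, with unadjusted p under 0.05 for Lgals3, Lgals8 and Icmt, while Map1lc3a was still called. Without replicate 1 of 48p-HFSCs 4 autophagy and 2 prenylation genes were called, and without replicate 2 of 48p-HFSCs 2 autophagy genes. These 4 lists share the control libraries with the GBP and IRG genes, and whether they change together with them was not tested.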
